A study of Mus musculus with 12 samples.

Results

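The genes described here are 30 genes of cholesterol synthesis and its control by the transcription factor SREBP2, picked by symbol from the 24532 genes of a mouse liver RNA-sequencing table. All 30 passed the filter on low counts that left 14038 genes for testing. Whole livers came from C57BL/6 mice in 4 groups of 3 livers. All animals were males, aged 10 to 12 weeks at the start of the diet. They carried the Ahr fl/fl alleles, in which loxP sites flank exon 2 of the aryl hydrocarbon receptor gene Ahr. The WT mice were littermates without Cre. The Ahr HKO mice also carried Alb-Cre, a Cre recombinase driven by the albumin promoter, which the study used to delete the gene in hepatocytes. For 5 weeks the animals received the Lieber-DeCarli liquid diet, either with 5% ethanol by volume, equal to 36% of the calories (WT+EtOH and Ahr HKO+EtOH), or as an isocaloric diet without ethanol (WT+con and Ahr HKO+con). The comparisons ask how the ethanol diet moved these genes in each genotype, how the genotypes differed on each diet, and whether the diet effect differed between genotypes.

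Cholesterol is built from acetyl-CoA through mevalonate and isoprenoid units to squalene, and then through lanosterol and a series of sterol intermediates to cholesterol. SREBP2, the product of Srebf2, turns on the genes of this pathway. It is held in the endoplasmic reticulum by SCAP together with the INSIG proteins when sterols are plentiful, and SCAP escorts it to the Golgi for cleavage when sterols run low. The liver is a main site of this synthesis, and it also secretes cholesterol into bile and converts it to bile acids.

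The libraries held 46306518 to 74336255 reads counted on genes. In CPM, read counts scaled to library size with TMM factors, Ahr itself measured 20.1, 16.6 and 18.3 in WT+con, 30.5, 20.8 and 23.5 in WT+EtOH, 65.5, 41.3 and 63.3 in the livers labelled Ahr HKO+con and 41.8, 32.1 and 24.7 in those labelled Ahr HKO+EtOH. Every liver labelled Ahr HKO+con thus held more Ahr transcript than any WT+con liver, although the gene was the target of the deletion. Counts per gene take in every exon and do not show whether exon 2 was lost, so they do not check the deletion, and the genotypes below are those of the labels. Cyp1a2, a gene induced by the receptor, measured 398 to 617 CPM in WT+con and 90.7 to 258 CPM in Ahr HKO+con, and 992 to 1210 CPM in WT+EtOH against 629 to 684 CPM in Ahr HKO+EtOH. The 5 hepatocyte markers summed to between 36400 and 56000 FPKM in every library, most of it Alb (22500 to 43800 FPKM). Single markers of this list moved by edgeR's quasi-likelihood test. On ethanol in WT, Apoa1 was lower (adjusted p = 0.0346) and Tat higher (adjusted p = 0.0313). Ttr rose on ethanol in the livers labelled Ahr HKO (adjusted p = 0.0422). On ethanol, Tat was higher in Ahr HKO than in WT (adjusted p = 0.0431). The diet effect on Apoa1 differed between genotypes (adjusted p = 0.0389). In whole liver, fewer cells of a type and less RNA per cell cannot be told apart.

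Levels of different genes were compared per length of transcript, in FPKM. In WT+con livers the highest mean was that of Fdps, which makes farnesyl diphosphate, at 216 ± 37.7 FPKM (SD, n = 3), followed by the sterol desaturase Sc5d at 162 ± 26.1 and the sterol isomerase Ebp at 136 ± 4.62. The lowest was that of Mylip, an E3 ubiquitin ligase that acts on lipoprotein receptors, at 4.45 ± 0.13 FPKM. Lanosterol synthase, encoded by Lss, lay next above it at 8.28 ± 1.51, then the ketosteroid reductase Hsd17b7 at 9.12 ± 2.22 and Srebf2 at 13.1 ± 1.63. Of the 29 pairs of neighbours in this order, 26 had overlapping ranges over the 3 livers. The 3 gaps without overlap lay below Ebp, below Srebf2 and below Lss.

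**Figure D1:**
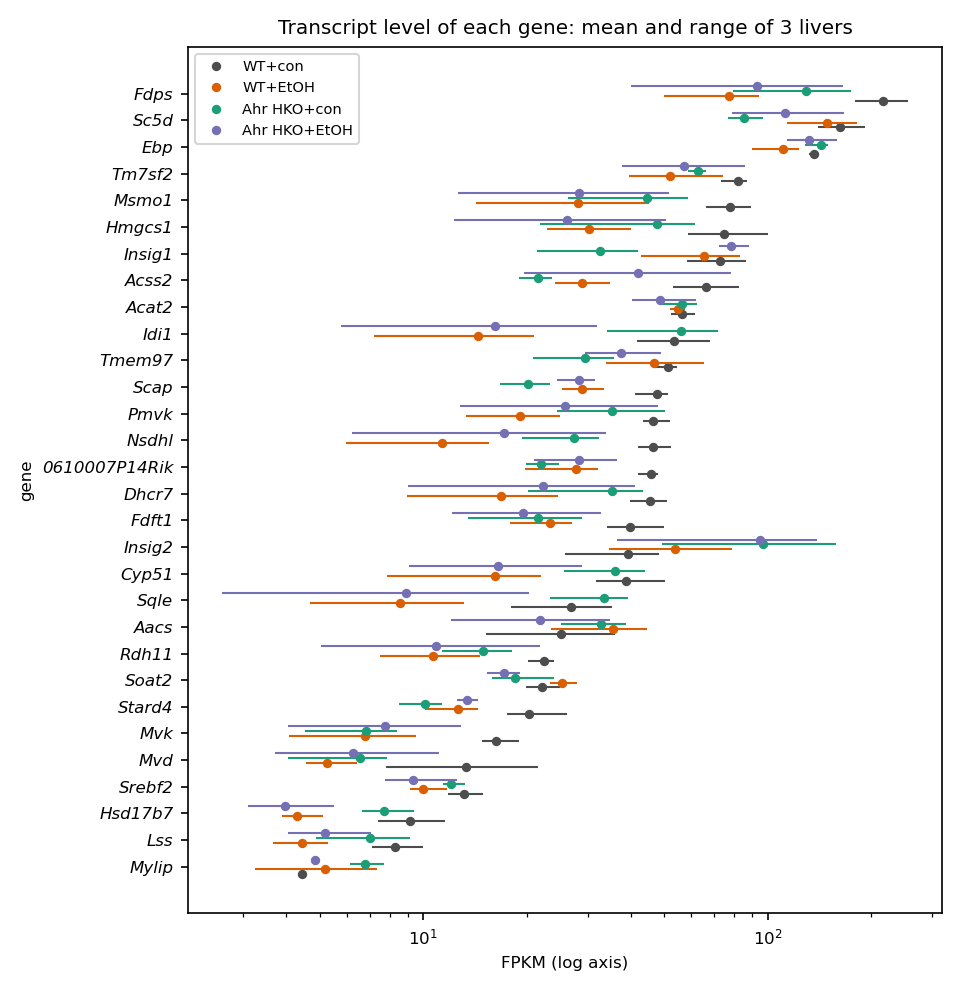
FPKM (log axis) of the 30 genes in the 4 groups. Points are means and lines run from the lowest to the highest of 3 livers. Genes are ordered by their WT+con mean, from Mylip at 4.45 to Fdps at 216 FPKM.

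In WT mice the ethanol diet went with lower transcripts of the cholesterol synthesis pathway. Of the 30 genes, 14 fell at an adjusted p under 0.05 and 0 rose, where 4.48% and 4.24% of all tested genes fell and rose (edgeR's quasi-likelihood test with Benjamini-Hochberg adjustment over 14038 genes). At an unadjusted p under 0.05 the number was 22 (26.1% of all genes), and DESeq2 called 21 lower and 0 higher (8.16% and 8.47% of all genes). The log2 fold change was negative for 26 of the 30, with a median of -1.0 against 0.01 over all genes, and for 22 genes the 3 WT+EtOH livers did not overlap the 3 WT+con livers (32.9% of all genes).

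The mevalonate arm, from acetyl-CoA to squalene, had 5 of 8 genes lower and a median log2 fold change of -1.45. Hmgcs1, the HMG-CoA synthase at the head of the pathway (chr13:119690351-119708260, mm10), measured 244, 382 and 220 CPM in WT+con and 143, 71.2 and 93.3 CPM in WT+EtOH. Idi1, which isomerizes isopentenyl diphosphate (chr13:8885606-8892396), measured 155, 209 and 125 against 60.3, 18.1 and 40.9 CPM. Fdps measured 254, 359 and 297 against 115, 56.2 and 116 CPM. All ethanol livers lay below all control livers for these genes, and liver 2 of WT+EtOH was the lowest. The log2 fold changes were -1.46 ± 0.30 (SE) for Hmgcs1 (adjusted p = 0.0296), -2.04 ± 0.41 for Idi1 (adjusted p = 0.0278) and -1.66 ± 0.29 for Fdps (adjusted p = 0.0168). Pmvk, the phosphomevalonate kinase, measured 55.5, 66.5 and 54.3 CPM on the control diet and 29.7, 13.9 and 21.5 CPM on ethanol, a log2 fold change of -1.44 ± 0.25 (adjusted p = 0.0187). The fifth gene to fall was the mevalonate kinase Mvk, at -1.42 ± 0.32 (adjusted p = 0.0381). Mvd, the mevalonate diphosphate decarboxylase, had -1.52 ± 0.37 and Fdft1, the squalene synthase, -0.93 ± 0.24, and neither passed (adjusted p = 0.0502 and 0.0540) although their groups did not overlap. Acat2, an acetoacetyl-CoA thiolase, stood at 124 ± 11.7 and 108 ± 11.2 CPM (adjusted p = 0.328).

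Among the 11 genes of the sterol arm after squalene, 5 fell and the median log2 fold change was -1.24. The largest change of all 30 genes in this comparison was that of Nsdhl, the dehydrogenase that removes the carboxyl group at the sterol C4 position (chrX:72918521-72958528). It measured 105, 125 and 97.7 CPM in WT+con and 34.4, 11.7 and 26.0 CPM in WT+EtOH, which is 4.54-fold lower on ethanol (adjusted p = 0.0153). The squalene epoxidase Sqle measured 52.2, 104 and 78.3 CPM against 36.1, 11.3 and 20.6 CPM, a fall of 3.46-fold (adjusted p = 0.0453). Lss measured 51.7, 67.8 and 47.4 CPM against 23.3, 24.2 and 31.8 CPM (2.11-fold lower, adjusted p = 0.0155). The ranges did not overlap in any of these. Hsd17b7 (chr1:169949535-169969242), which reduces the C3 ketone, measured 35.6, 57.0 and 40.2 CPM on control diet and 23.5, 15.7 and 16.9 CPM on ethanol (2.37-fold lower, adjusted p = 0.0185). Dhcr7, the reductase of a last step of the pathway, measured 118, 154 and 134 CPM and 69.4, 22.2 and 45.1 CPM (2.98-fold lower, adjusted p = 0.0421). The C4 methyl oxidase Msmo1 (log2 fold change -1.59 ± 0.42, adjusted p = 0.0576), the lanosterol demethylase Cyp51 (-1.40 ± 0.40, 0.0756), 0610007P14Rik, the mouse ERG28 gene of the C4 demethylation complex (-0.88 ± 0.22, 0.0521), the C14 reductase Tm7sf2 (-0.81 ± 0.28, 0.117) and Ebp (-0.45 ± 0.17, 0.140) did not pass, with groups that did not overlap. Sc5d was at -0.27 ± 0.23 (adjusted p = 0.497).

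Of the genes that control SREBP2, Scap fell from 229, 226 and 183 CPM to 142, 93.8 and 112 CPM (log2 fold change -0.88 ± 0.17, adjusted p = 0.0249). Srebf2 measured 56.7, 73.1 and 60.4 CPM and 53.5, 36.9 and 39.7 CPM, and did not pass (-0.55 ± 0.17, adjusted p = 0.0860). Insig1, whose protein retains SCAP and whose gene is itself an SREBP2 target, was at -0.35 ± 0.23 (adjusted p = 0.376) and its relative Insig2 at 0.30 ± 0.34 (adjusted p = 0.626). Among the other targets and cholesterol handling genes, the cytosolic acetyl-CoA synthetase Acss2 (-1.35 ± 0.22, adjusted p = 0.0151), the retinol dehydrogenase Rdh11 (-1.21 ± 0.27, adjusted p = 0.0350) and the sterol transfer protein Stard4 (-0.87 ± 0.19, adjusted p = 0.0373) fell. The acetoacetyl-CoA synthetase Aacs (0.32 ± 0.33), the sterol-binding membrane protein Tmem97 (-0.29 ± 0.27), Mylip (0.03 ± 0.23) and the cholesterol esterifying enzyme Soat2 (0.03 ± 0.14) had overlapping groups and did not pass.

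The number of genes past the threshold depended on single libraries, while the median over the 30 genes moved little. It was 6 without liver 1 of WT+con, 2 without liver 2, 3 without liver 3 and 4 without liver 3 of WT+EtOH, and over all genes the number lower went from 629 to between 177 and 567 over the 6 such fits. The median stayed between -1.16 and -0.87 in these fits. With all 12 libraries in 1 fit, 8 of the 30 passed. Lss passed in all 16 alternatives, and Acss2 and Nsdhl in 15 of 16 each, whereas Stard4 was lost in 9, Sqle in 8, Hmgcs1 in 7, and Mvk and Dhcr7 in 6 each. The livers of a group differed in a shared direction. Liver 2 of WT+EtOH had the lowest value of its group in 25 of the 30 genes (37.8% of all genes), and liver 2 of WT+con the highest in 23 (31.2% of all genes). The Kupffer cell marker Adgre1 measured 14.3, 45.7 and 11.5 CPM in WT+EtOH, so that its high value fell in the same liver 2, while 0 of 5 Kupffer markers passed between the diets by edgeR, also at an unadjusted p under 0.05, with summed levels of 110 to 336 FPKM against 118 to 159. The stellate cell marker Lrat was 2.03-fold higher in WT+EtOH (adjusted p = 0.0292), 1 of 4 such markers. The part of these cells in the result was not tested.

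**Figure D2:**
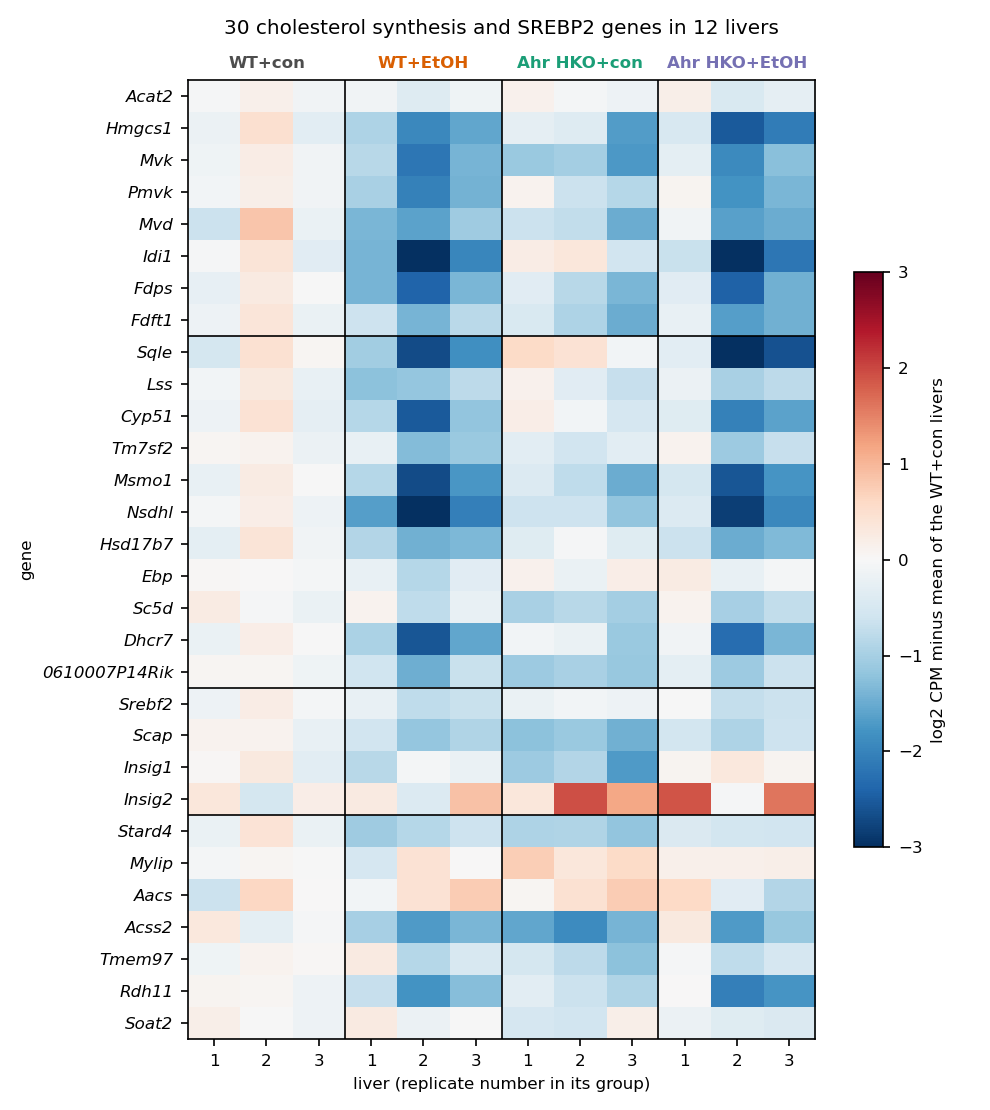
Log2 CPM of the 30 genes in each of the 12 livers, relative to the mean of the 3 WT+con livers. Rows are grouped by role in the order of the text, colours end at 3 in either direction, and blue marks lower values. Blue fills most of the enzyme rows in WT+EtOH and in livers 2 and 3 of Ahr HKO+EtOH, while liver 1 of that group is paler.

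Because the enzymes moved together, the stretches before their transcription starts were read from RefSeq promoters (GRCm38.p6, the assembly of mm10), each from 250 bases before to 50 bases after a start, for the 25 genes matched. The promoters of Fdps, Fdft1, Sqle, Stard4 and Soat2 were not analysed here. The letters CCAAT, the core bound by NF-Y, a common partner of SREBPs, stood on either strand in 21 of the 25 (41.1% of all genes with a promoter and 43.1% of the tested ones), and at least 2 copies stood in 13 of the 25 (13.3% and 16.5%). The sterol regulatory element core TCACNCCAC stood in the Hmgcs1 promoter and in none of the other 24 (1.44% of all genes). The GC box GGGCGG was found in 22 of 25 (38.2% of all and 65.6% of tested genes) and the core GCGTG of the AhR response element in 19 of 25 (35.2% and 53.6%). These shares describe the letters in this window and not binding. The windows below show the arrangement of these letters in 4 enzymes that fell on ethanol in WT mice and in Insig1, which did not pass there. The number of CCAAT boxes varied in both kinds of gene. Among the genes that fell, Mvk held 5 boxes, Lss, Pmvk and Acss2 at most 1 and Scap 0. Among those that did not pass, Mylip held 3 and Insig2 up to 3 over its promoter entries, whereas Acat2, Aacs and 0610007P14Rik held 0. Whether the number of boxes goes with the response was not tested. Capitals mark CCAAT, which reads ATTGG where it lies on the other strand, and in Hmgcs1 also TCACCCCAC. The sequences run 5′ to 3′ on the strand of the gene.
Hmgcs1, chr13:119690104-119690320, plus strand: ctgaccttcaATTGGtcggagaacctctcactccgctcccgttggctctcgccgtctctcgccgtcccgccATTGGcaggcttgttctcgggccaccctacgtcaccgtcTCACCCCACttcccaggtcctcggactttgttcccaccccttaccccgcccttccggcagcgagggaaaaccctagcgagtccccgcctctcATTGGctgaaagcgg
Nsdhl, chrX:72918402-72918515, plus strand: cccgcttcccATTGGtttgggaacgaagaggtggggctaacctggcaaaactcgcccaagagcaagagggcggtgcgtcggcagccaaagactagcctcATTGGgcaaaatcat
Idi1, chr13:8885551-8885605, plus strand: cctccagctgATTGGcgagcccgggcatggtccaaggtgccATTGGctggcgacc
Hsd17b7, chr1:169969206-169969380, minus strand: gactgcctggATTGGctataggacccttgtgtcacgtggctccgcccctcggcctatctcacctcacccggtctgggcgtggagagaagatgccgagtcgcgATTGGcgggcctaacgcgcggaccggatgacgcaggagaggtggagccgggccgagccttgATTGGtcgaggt
Insig1, chr5:28071186-28071210, plus strand: ccctcctcccATTGGctccggcggc
In the windows shown, Hmgcs1 and Hsd17b7 held 3 CCAAT boxes before the RefSeq start, Nsdhl and Idi1 held 2 and Insig1 held 1. The end of the Hsd17b7 window, with its last box, lies inside the gene by the coordinates given above. That RefSeq gene span begins further upstream than the start used for the promoter.

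On the control diet, livers labelled Ahr HKO had lower levels of several of these genes than WT livers, led by Acss2 and Scap. 12 of the 30 were lower and 1 was higher, where 14.4% of all tested genes were lower and 15.3% higher. The median log2 fold change was -0.52 (0.00 over all genes), 24 of the 30 were negative, and the groups did not overlap for 17 (47.3% of all genes). This comparison shares its WT+con livers with the comparison of diets above. Of the enzymes that did not pass, Fdps (-0.80 ± 0.26, adjusted p = 0.0540), Mvd (-1.07 ± 0.40, 0.0824) and Msmo1 (-0.83 ± 0.26, 0.0504) had groups that did not overlap. Hmgcs1 (-0.70 ± 0.38, adjusted p = 0.206), Idi1 (0.02 ± 0.27, 0.965), Sqle (0.28 ± 0.27, 0.470), Lss (-0.28 ± 0.23, 0.401) and Cyp51 (-0.14 ± 0.24, 0.704) were among those whose groups overlapped. Markers of liver cells moved as well. The cholangiocyte marker Epcam was 4.85-fold higher (adjusted p = 0.00778), the endothelial marker Pecam1 1.56-fold higher (adjusted p = 0.0244), the B cell marker Cd79a 3.33-fold lower (adjusted p = 0.0172) and the hepatocyte marker Tat 3.28-fold higher (adjusted p = 0.0217), each 1 of the 4 or 5 genes of its list, while 0 of 5 Kupffer and 0 of 4 stellate markers passed by edgeR, also at an unadjusted p under 0.05. Their part in the result was not tested.

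Acss2 showed the largest difference, from 246, 161 and 191 CPM in WT+con to 66.1, 52.9 and 73.8 CPM in Ahr HKO+con, 3.10-fold lower (log2 fold change -1.63 ± 0.19, adjusted p = 0.00179). In the control group of genes, Scap measured 229, 226 and 183 CPM against 89.3, 97.5 and 77.6 CPM, 2.42-fold lower (-1.27 ± 0.14, adjusted p = 0.00144). Every Ahr HKO+con liver thus held less Scap transcript than any WT+con liver, and the same held for Insig1 (chr5:28071412-28078662), which measured 206, 246 and 162 CPM against 94.8, 109 and 62.2 CPM (-1.21 ± 0.24, adjusted p = 0.00979). Srebf2 itself was at 63.4 ± 8.57 and 57.2 ± 2.36 CPM (-0.15 ± 0.12, adjusted p = 0.372). Insig2 measured 129, 70.2 and 117 CPM in WT+con and 130, 392 and 230 CPM in Ahr HKO+con, higher by 1.25 ± 0.40 on the log2 scale without passing (adjusted p = 0.0534). The livers of Ahr HKO+con spread widely in this gene, and without liver 1 of Ahr HKO+con the test was passed by 2 genes on the higher side, Insig2 and Mylip. The ubiquitin ligase Mylip was the gene called higher in the full comparison, from 13.6, 14.7 and 14 CPM to 24.0, 18 and 21.3 CPM (0.58 ± 0.12, adjusted p = 0.0115).

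In the mevalonate arm Mvk measured 26.9, 34.6 and 27.4 CPM in WT+con and 13.3, 14.2 and 8.57 CPM in Ahr HKO+con (2.46-fold lower, adjusted p = 0.00444), and Fdft1 measured 138, 198 and 133 CPM and 112, 80.4 and 54.9 CPM (1.90-fold lower, adjusted p = 0.0395). The groups did not overlap for either. In the sterol arm 0610007P14Rik was lower with little spread, at 60.1, 60.1 and 52.4 CPM against 26.5, 29.0 and 25.9 CPM (2.12-fold lower, adjusted p = 0.00103). Sc5d measured 452, 374 and 331 CPM against 193, 215 and 189 CPM (1.94-fold lower, adjusted p = 0.00369), whereas the ethanol diet had not moved it past the threshold in WT. Tm7sf2 measured 133, 138 and 114 CPM against 102, 85.8 and 102 CPM, a small difference (1.33-fold lower, adjusted p = 0.0405) that was lost in 8 of 16 alternatives. Nsdhl was 1.74-fold lower (adjusted p = 0.0160). Among the remaining genes, Tmem97 measured 65.9, 78.2 and 73.8 CPM against 49.8, 41.9 and 30.5 CPM (1.78-fold lower, adjusted p = 0.0135), and Rdh11 measured 39.7, 39.2 and 33.4 CPM against 29.8, 23.8 and 19.6 CPM (1.54-fold lower, adjusted p = 0.0254). Stard4 was 2.05-fold lower (adjusted p = 0.00698). Of these genes, Fdft1 was lost in 6 of the 16 alternatives, Rdh11 in 4 and Nsdhl in 2. Mvk, 0610007P14Rik, Sc5d, Tmem97 and Stard4 passed in all 16.

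Before the ethanol diet in the livers labelled Ahr HKO is described, the spread of that group has to be given. Liver 1 of Ahr HKO+EtOH had the highest value of its group in 28 of the 30 genes, and it had the highest value in 38.1% of all tested genes. It lay a median of 1.16 log2 units above the other livers of its group in these genes and 0.00 in all genes. The median SD of log2 CPM among the 3 livers was 0.76 for the 30 genes and 0.15 for all genes. In WT+EtOH it was 0.48 against 0.19, in Ahr HKO+con 0.35 against 0.18 and in WT+con 0.23 against 0.14. The largest single spread was that of Sqle in Ahr HKO+EtOH, at 60.8, 7.73 and 11.9 CPM. The reads on genes in liver 1 numbered 74336255, the most of any library.

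With all 6 livers, 3 of the 30 genes rose and 2 fell on ethanol in the livers labelled Ahr HKO (15% and 16.1% of all genes rose and fell), with a median log2 fold change of -0.21 (-0.02 over all genes). Insig1 rose from 94.8, 109 and 62.2 CPM to 213, 251 and 215 CPM (2.55-fold, adjusted p = 0.00536). Its 3 ethanol livers lay close together, above every control liver of this genotype. Scap rose from 89.3, 97.5 and 77.6 CPM to 145, 111 and 138 CPM (1.49-fold, adjusted p = 0.0223). Stard4 rose from 58.7, 59.5 and 49.6 CPM to 83.1, 76.2 and 74.8 CPM (1.40-fold, adjusted p = 0.0173). Liver 1 of Ahr HKO+EtOH was the lowest of its group in Insig1 and the highest in Scap and Stard4. Hsd17b7 fell from 33.7, 42.4 and 33.3 CPM to 27.5, 15.2 and 17.1 CPM (1.83-fold, adjusted p = 0.0278), and Mylip from 24.0, 18 and 21.3 CPM to 15.7, 15.8 and 16.0 CPM (1.33-fold, adjusted p = 0.0397). Over 16 alternatives the fall of Mylip was lost in 9 and that of Hsd17b7 in 5. The rise of Scap was lost in 5 and that of Stard4 in 4, while the rise of Insig1 passed in all 16.

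Without liver 1 of Ahr HKO+EtOH, a fit that rests on 2 ethanol livers, 10 of the 30 genes fell and 1 rose (11.3% and 10.6% of all genes), and the median was -0.59. Liver 1 was left out because of its values in these same genes, so lower values and a smaller spread follow in part from that choice, and the fit is given as a description. Sqle was 9.75-fold lower (log2 fold change -3.29 ± 0.30, adjusted p = 0.00453), Idi1 6.27-fold lower (-2.65 ± 0.40, adjusted p = 0.0111), Cyp51 3.27-fold (-1.71 ± 0.25, adjusted p = 0.0101), Hmgcs1 3.16-fold (-1.66 ± 0.43, adjusted p = 0.0406) and Nsdhl 2.93-fold (-1.55 ± 0.32, adjusted p = 0.0225). With all livers these 5 genes had adjusted p-values of 0.0959, 0.0667, 0.102, 0.345 and 0.447. Rdh11, Hsd17b7, Pmvk, Aacs and Srebf2 fell as well, Srebf2 by 0.55 ± 0.10 on the log2 scale (adjusted p = 0.0182). Insig1 was still higher (1.39 ± 0.24, adjusted p = 0.0148), whereas Scap (0.50 ± 0.15, adjusted p = 0.0625), Stard4 (0.43 ± 0.12, adjusted p = 0.05 after rounding) and Mylip (-0.41 ± 0.15, adjusted p = 0.0950) no longer passed. The number that fell was 0 without liver 1 of Ahr HKO+con or without liver 2 or 3 of Ahr HKO+EtOH, and 1 without liver 2 or 3 of Ahr HKO+con. Other cells moved in this comparison too. All 5 Kupffer cell markers were lower on ethanol, with a summed level of 65.3 to 78.4 FPKM against 104 to 271, as were 2 of 4 sinusoidal endothelial markers (summed 53.1 to 58.8 against 72.2 to 89.5 FPKM), 1 of 4 lymphocyte markers and 1 of 4 cholangiocyte markers, while 1 of 4 stellate cell markers was higher. The lowest marker value in any library was 0.111 FPKM, for Cd79a, and the part of these cells in the result was not tested.

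**Figure D3:**
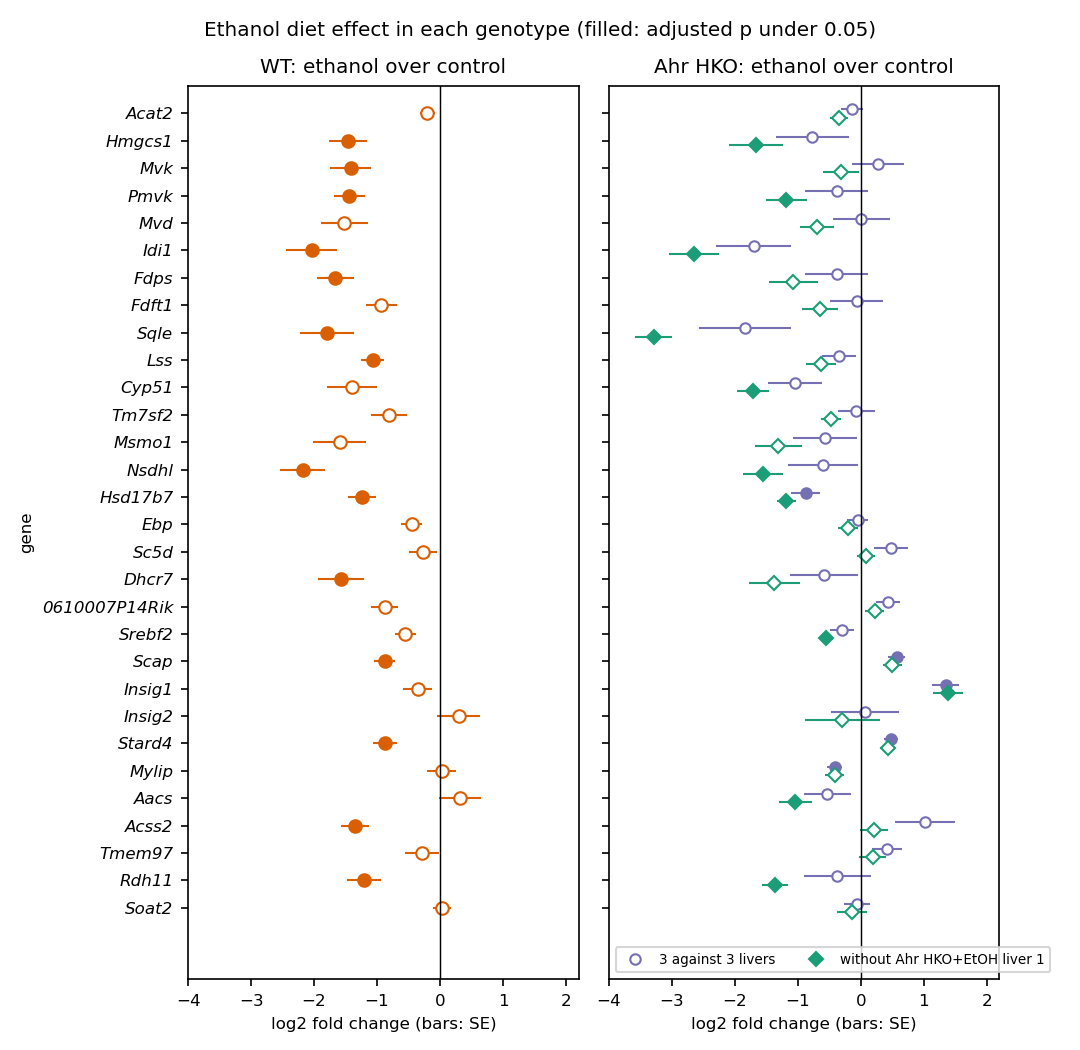
Log2 fold change of ethanol over control diet for the 30 genes in WT (left) and in livers labelled Ahr HKO (right), with bars of 1 SE and filled symbols for an adjusted p under 0.05. Diamonds on the right are the fit without liver 1 of Ahr HKO+EtOH, in which Sqle moves from -1.83 to -3.29 and 10 genes pass on the lower side, while Insig1 stays at 1.39.

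The diet effects in the 2 genotypes share no liver. Over the 30 genes they correlated with a Pearson r of 0.45 and a Spearman rho of 0.51, and over all 14038 genes with 0.16 and 0.08. These correlations are across genes of shared control, scaled together, and are given as a description. The fold change was negative in both genotypes for 17 of the 30 genes and positive in both for 1, whether or not it passed the test. Over all genes, 53% had the same sign in both genotypes, taking both directions together, so that share is no background for the 17 alone. A negative fold change was found for 48.4% of all genes in WT and for 51.4% in the livers labelled Ahr HKO. The share of all genes lower in both was not computed.

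On the ethanol diet itself the genotypes did not differ in any of the 30 genes at an adjusted p under 0.05 (edgeR), where 0.684% of all genes were higher and 0.378% lower in the livers labelled Ahr HKO. The count was 0 in every alternative, DESeq2 and limma included, and 3 genes had an unadjusted p under 0.05 (21% of all genes). These were Insig1, at 114, 193 and 175 CPM in WT+EtOH and 213, 251 and 215 CPM in Ahr HKO+EtOH (0.50 ± 0.20, adjusted p = 0.219), Stard4, at 53.8, 62.0 and 72.7 CPM against 83.1, 76.2 and 74.8 CPM (0.31 ± 0.13, adjusted p = 0.224), and Soat2 (-0.36 ± 0.14, adjusted p = 0.207). The groups did not overlap for 2 genes, Insig1 and Stard4 (27.9% of all genes). The errors were wide, with an SE of the log2 fold change of up to 0.78, for Sqle, so the absence of calls does not show that the levels were alike. The median over the 30 genes was 0.24, and -0.19 without liver 1 of Ahr HKO+EtOH. All 5 Kupffer markers had lower values in Ahr HKO+EtOH without passing the test, with 4 of them not overlapping.

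The diet effect differed between the genotypes for 5 of the 30 genes, all in the positive direction, so that the ethanol over control ratio was higher in the livers labelled Ahr HKO than in WT (11.2% of all genes had a positive and 11.1% a negative interaction, so the count is not far from the background). They were 2 of the 4 control genes, Scap and Insig1, together with Stard4, Acss2 and 0610007P14Rik. The median interaction over the 30 genes was 0.74 log2 units, against -0.03 over all genes, and 25 of 30 were positive. The median was 0.27 without liver 1 of Ahr HKO+EtOH.

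Stard4 measured 97.8, 149 and 97.8 CPM in WT+con, 53.8, 62.0 and 72.7 in WT+EtOH, 58.7, 59.5 and 49.6 in Ahr HKO+con and 83.1, 76.2 and 74.8 in Ahr HKO+EtOH. It thus fell on ethanol in WT and rose on ethanol in the livers labelled Ahr HKO, which started from a lower level. The fall was lost in 9 of 16 alternatives and the rise in 4 of 16. The interaction of Stard4 was 1.35 ± 0.24 (adjusted p = 0.00327). Scap followed the same order of groups (1.45 ± 0.23, adjusted p = 0.00226). Insig1 did not pass in WT and rose in Ahr HKO (1.70 ± 0.34, adjusted p = 0.00587). Acss2 fell in WT, from 199 ± 43.0 to 77.9 ± 19.6 CPM, and measured 66.1, 52.9 and 73.8 CPM in Ahr HKO+con and 241, 59.7 and 89.1 CPM in Ahr HKO+EtOH. Its interaction was 2.37 ± 0.59 (adjusted p = 0.0164), and 1.56 ± 0.34 (adjusted p = 0.0126) without the liver at 241 CPM. 0610007P14Rik measured 57.5 ± 4.48, 31.4 ± 9.42, 27.1 ± 1.64 and 36.9 ± 10.1 CPM in WT+con, WT+EtOH, Ahr HKO+con and Ahr HKO+EtOH (1.32 ± 0.32, adjusted p = 0.0149). Each of the 5 passed in all 21 alternatives. Among the enzymes the interaction had wide errors, as in Nsdhl (1.59 ± 0.74, adjusted p = 0.145), Mvk (1.69 ± 0.58, adjusted p = 0.0578) and Sqle (-0.04 ± 0.92, adjusted p = 0.984). All 5 Kupffer markers had a negative interaction, 3 of which passed, as did the negative interactions of Pecam1, Epcam and the leukocyte marker Ptprc, and their part in the results here was not tested.

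**Figure D4:**
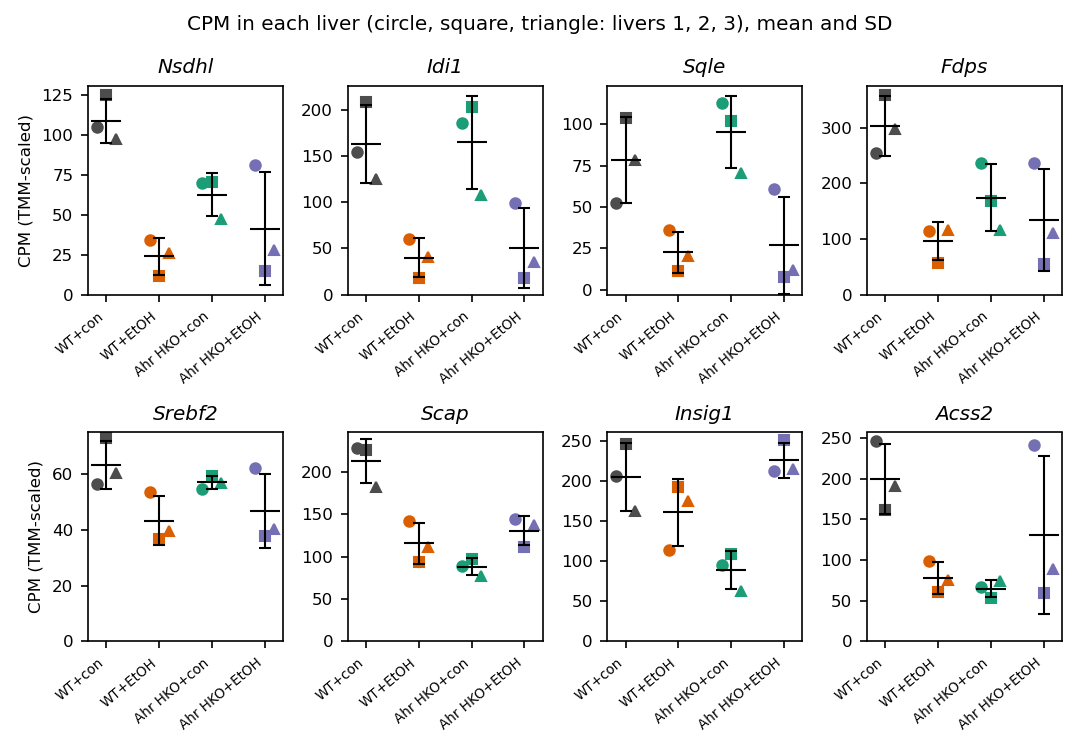
CPM of 8 of the genes in each liver, with circles, squares and triangles for livers 1, 2 and 3, and bars for the mean and SD. Nsdhl, Idi1 and Sqle are low in WT+EtOH and in livers 2 and 3 of Ahr HKO+EtOH, whereas Insig1 is lowest in Ahr HKO+con (62.2 to 109 CPM) and is 213 to 251 CPM in Ahr HKO+EtOH.

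Neighbouring pathways were described by lists. The genes of SREBP processing and sterol-regulated degradation, 11 of 12 matched by symbol, had few calls. None of the 11 passed for diet in WT by edgeR, where 4.24% of all genes rose and 4.48% fell. At an unadjusted p under 0.05 there was 1 (26.1% of all genes). Paqr3, which tethers SCAP in the Golgi, fell on ethanol in the livers labelled Ahr HKO by 0.59 ± 0.16 on the log2 scale (adjusted p = 0.0327). That fall was lost in 6 of 16 alternatives. In the branch of non-sterol isoprenoids that leaves at farnesyl diphosphate, 3 of 9 genes were higher in Ahr HKO+con than in WT+con (15.3% of all genes), and the median of the list was 0.31. They were Nus1, a subunit of the dolichol-making prenyltransferase (37.9 ± 1.60 to 63.3 ± 7.71 CPM, adjusted p = 0.00387), Pggt1b (5.05 ± 0.270 to 8.46 ± 0.869 CPM, adjusted p = 0.00680) and Fntb (3.60 ± 0.0433 to 6.26 ± 1.34 CPM, adjusted p = 0.0159), which attach isoprenoids to proteins. Pggt1b and Fntb fell on ethanol in that genotype (adjusted p = 0.00476 and 0.00599), and in WT Nus1 rose (0.43 ± 0.09, adjusted p = 0.0282). The rise of Nus1 was lost in 7 of 16 alternatives.

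The list of LXR, cholesterol efflux and bile acid genes had 1 higher and 3 lower of 13 on ethanol in WT (4.24% and 4.48% of all genes), 2 higher and 4 lower in Ahr HKO+con against WT+con (15.3% and 14.4%), and 5 higher and 4 lower on ethanol in the livers labelled Ahr HKO (15% and 16.1%), with medians of -0.22, -0.19 and 0.02. Cyp7b1, the oxysterol hydroxylase, fell from 341, 290 and 272 CPM to 45.2, 39.2 and 57.3 CPM on ethanol in WT (6.37-fold, adjusted p = 0.00075). The sterol transporters Abcg5 and Abcg8, which together move cholesterol into bile, were lower in Ahr HKO+con than in WT+con by 1.07 ± 0.15 and 1.65 ± 0.19 on the log2 scale (adjusted p = 0.00282 and 0.00167), and rose on ethanol there (1.09 ± 0.16 and 1.33 ± 0.16, adjusted p = 0.0041 and 0.00259). Cyp8b1, which sets the share of cholic acid, was 5.81-fold lower in Ahr HKO+con (adjusted p = 0.00179). The list of SREBP1c and its lipogenic targets had 2 higher and 1 lower of 8 on ethanol in WT, with a median of 0.93. In Ahr HKO+con against WT+con it had 0 higher and 3 lower (median -0.22). On ethanol in the livers labelled Ahr HKO it had 2 higher and 0 lower (median 0.84). The shares of all genes called are those given for the LXR list. Srebf1 measured 358, 297 and 306 CPM in WT+con, 137, 84.3 and 176 in WT+EtOH, 69.7, 76.7 and 86.4 in Ahr HKO+con and 438, 140 and 153 in Ahr HKO+EtOH. It was 4.13-fold lower in Ahr HKO+con than in WT+con (adjusted p = 0.000614) and 2.42-fold lower on ethanol in WT (adjusted p = 0.0256). Srebf1 rose on ethanol in the livers labelled Ahr HKO (1.65 ± 0.43, adjusted p = 0.0278), where liver 1 was again the highest. That rise ran from 0.92 to 1.93 over the 16 alternatives and was lost in 4 of them. The fatty acid elongase Elovl6 (1.18 ± 0.16, adjusted p = 0.00751) and the malic enzyme Me1 (1.52 ± 0.21, adjusted p = 0.00834) rose on ethanol in WT, while most cholesterol enzymes had lower values there. Of the 8 lipogenic genes, 5 had a positive and 3 a negative log2 fold change in that comparison. The citrate lyase Acly was lower in Ahr HKO+con (-0.75 ± 0.19, adjusted p = 0.0248). On ethanol, 0 genes of the 4 lists passed between genotypes by edgeR, where 0.684% of all genes were higher and 0.378% lower. At an unadjusted p under 0.05 (21% of all genes) there were 7 of 13 in the LXR list and 1 of 11 in the processing list. The isoprenoid list had 0 of 9 and the lipogenic list 3 of 8.

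**Figure D5:**
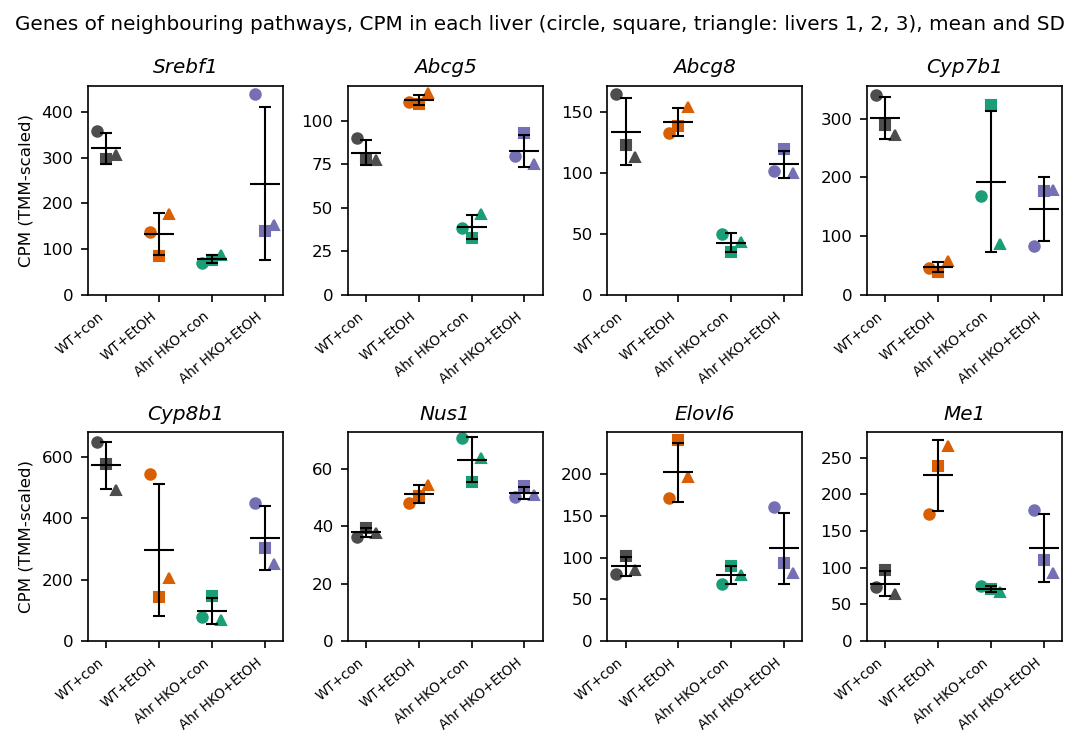
CPM of 8 genes of neighbouring pathways in each liver, with circles, squares and triangles for livers 1, 2 and 3 and bars for the mean and SD. Srebf1, Abcg5 and Abcg8 are lowest in Ahr HKO+con, where Srebf1 lies between 69.7 and 86.4 CPM, and Cyp7b1 is lowest in WT+EtOH.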

How the data were processed

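RNA from whole liver was sequenced in 12 mice, and the counts, FPKM and TPM values per gene were deposited by the authors in 1 table, the counts without scaling, with 1 column for each mouse. The submitters' processing notes name FastQC 0.11.7, Trimmomatic 0.38, HISAT2 2.1.0, Bowtie2 2.3.4.1 and StringTie 1.3.4d with the mouse build mm10. The program that produced the deposited counts is not given in the sources used here. The libraries were stranded, but whether the counting used strand is not given either, so overlapping and antisense genes may share reads. The deposited FPKM values served for comparing levels between genes and for alternatives, and the deposited TPM values were not used here.

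Counts were tested with edgeR 4.0.16 (R 4.3.3) after filterByExpr over the 12 libraries. TMM factors were computed over all 12 libraries, both for the main fits and for the CPM printed. Each pairwise comparison fitted its own 6 libraries with glmQLFit and glmQLFTest, and the interaction all 12. P-values were adjusted by Benjamini-Hochberg over 14038 genes, and a gene was called at an adjusted p under 0.05. The SE is the log2 fold change divided by the square root of the F statistic. The tests were checked on simulated counts. Alternatives used DESeq2 1.42.0, limma 3.58.1 on log2(FPKM + 1) or log2(FPKM + 0.1), other scaling and filters, and each library left out. Figures were drawn with matplotlib 3.10.9.

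In the processing list, 11 of 12 genes were matched by symbol. The results of 1 gene of that list are not reported here. The 30 genes and the pathway and marker lists were chosen with earlier results of these data known, so list counts are descriptions beside the share of all genes called. Genes called in any comparison were named with their values per liver in the comparison with the smallest adjusted p, and at most 4 genes of each pathway list were named, by smallest p. At these depths 3 counts are worth 0.0425 to 0.0676 CPM, far below every cholesterol and pathway gene named. The study drew 3 animals of each group at random for sequencing, so the spread is that between animals. No pair of libraries of a group agreed within sampling noise, with a chi-square of at least 68 per gene.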

Additional observations from a re-analysis of the deposited data

Results flagged for a closer look

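Among the 30 cholesterol genes, the diet effect differed between genotypes, by the test of the interaction over all 12 libraries, in 5, where 11.2% of all genes had a positive and 11.1% a negative difference, so the count is not far from the background. As the diet effect in the livers labelled Ahr HKO minus that in WT on the log2 scale, the differences were 1.32 for 0610007P14Rik, 1.45 for Scap, 1.70 for Insig1, 1.35 for Stard4 and 2.37 for Acss2, all positive. Their adjusted p-values in edgeR's quasi-likelihood test lay between 0.00226 and 0.0164. Acss2 rested in part on liver 1 of Ahr HKO+EtOH, without which it was 1.56.

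The genes named in the neighbouring pathways were picked by their small p-values, so how many passed the same test is no result about those pathways. They were 7. The difference was 2.92 for Srebf1, 2.71 for Cyp8b1, 2.27 for Cyp7b1, 1.24 for Abcg8 and 0.63 for Abcg5, and it was -0.72 for Nus1 and -0.93 for Pggt1b. The adjusted p for Abcg5 was 0.0317, and it was lost in 10 of 21 alternatives. The other 6 passed in all 21.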

How the results depend on the processing

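The number of genes lower on ethanol in WT, 14 with the 6 libraries, was 8 with all 12 libraries in 1 fit and 2 to 17 with a library left out. Between genotypes on the control diet, the number higher was 1, and it was 2 by DESeq2, 2 where each library had to reach 10 counts, 0 with a fold change above 1.5 and 1 to 2 with a library left out. For ethanol in the livers labelled Ahr HKO, the number lower was 2, and it was 4 by limma on either FPKM scale, 1 with a fold change above 1.5 and 0 to 10 with a library left out. The number higher was 3, then 1 with a fold change above 1.5 and 1 to 4 with a library left out. Negative interactions numbered 0, and 0 to 1 with a library left out, Mylip appearing without liver 1 of WT+EtOH.

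The median difference between genotypes on ethanol, 0.24, was -0.02 by limma on log2(FPKM + 1), -0.02 on log2(FPKM + 0.1) and -0.19 to 0.53 with a library left out. The FPKM are not scaled between libraries: on log2(FPKM + 1) the median of all genes moved to 0.10 for ethanol in WT, -0.13 between genotypes on ethanol and -0.14 for the interaction, on log2(FPKM + 0.1) to 0.16, -0.21 and -0.24. The share of calls that were higher went from 48.6% to 79.6% in WT, from 64.4% to 18.6% between genotypes on ethanol and from 50.2% to 23.4% for the interaction. DESeq2 called 714 genes higher and 797 lower between genotypes on ethanol where edgeR called 96 and 53, and 1189 and 1146 against 595 and 629 for ethanol in WT.

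The replicate block, with the number of the liver in the titles as a term, left 6 genes lower for ethanol in WT. Some libraries of the same number carry the same liver code in the labels, which do not say what the code means, and others do not. Their deviations from the group means correlated between -0.127 and 0.285, highest for liver 1 of the 2 ethanol groups. Among the 30 genes, liver 1 was the highest of its group in 22 in WT+EtOH (37.7% of all genes) and 28 in Ahr HKO+EtOH (38.1%). Liver 2 was the lowest in 25 in each (37.8% and 33.7%). The numbers were not taken as pairs in the main fits.

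In all, 148 of the counts under the alternatives stayed within 1.5 times and 22 did not. Of the values of single cholesterol genes past the threshold, 507 kept the call, 110 lost it and 0 changed sign, and of those of the pathway genes 470 kept it and 61 lost it. The causes were not tested. With 3 livers a group, differences within the spread between livers were not detectable.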
